A study of Mus musculus with 8 samples.

Results

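Liver RNA was followed for 9 genes of glycogen synthesis and breakdown, Ugp2, Gyg, Gys2, Gbe1, Pygl, Phka2, Ppp1r3b, Ppp1r3c and Ppp1r3g, in a circadian time course. They were found by name among the 24143 genes that could be named in the deposited tables, all 9 of them, from a list drawn up with earlier results of these data known. The study sequenced polyA-selected RNA from wild-type C57/BL6 mouse liver in 8 libraries, 1 every 6 h from CT23 to CT65. CT is circadian time in hours, and each library was made from equal amounts of RNA of 3 animals, so 1 library stands for 1 pool. The mice had been held in a light and dark cycle of 12 h each for 1 week and were moved to constant darkness 1 day before collection. The labels give neither age nor sex. Times 24 h apart (CT23 and CT47, CT29 and CT53, CT35 and CT59, CT41 and CT65) share a clock phase and are written below as phases CT23, CT5, CT11 and CT17. There were no replicate pools at any single time, and pool, sequencing lane and time cannot be told apart.

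Glycogen is the branched glucose store of the liver, filled after meals and emptied between them to hold blood glucose. UDP-glucose pyrophosphorylase (Ugp2) makes the activated sugar, glycogenin (Gyg) primes a new particle, liver glycogen synthase (Gys2) extends the chains and the branching enzyme (Gbe1) adds the branch points. Liver glycogen phosphorylase (Pygl) releases glucose 1-phosphate and is switched on by phosphorylase kinase, whose liver alpha subunit is encoded by Phka2. Ppp1r3b, Ppp1r3c and Ppp1r3g encode targeting subunits that bring protein phosphatase 1 to glycogen, where it activates the synthase and inactivates the phosphorylase. Levels below are RPKM, reads scaled to transcript length and library depth. Being per length, they can be set side by side between genes, but only roughly. They also depend on the transcript model chosen for a gene.

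Promoter sequences (250 bases before to 50 after the start site, RefSeq, GRCm38.p6) were matched for 7 of the 9 genes, with 8 promoters in all, and are not shown for Gys2 and Ppp1r3b. The promoters of Ppp1r3c and Phka2 are printed because both transcripts passed the 24-h test below, and that of Gyg, chosen after its letters were seen, because it is the other one to hold CACGTG. That string is the E-box core bound by the clock activators CLOCK and BMAL1. Capitals mark every match, on either strand, to 8 letter strings. Besides CACGTG these were its variant CACGTT, the D-box core TTATGTAA, the REV-ERB element TAGGTCA, the CREB site TGACGTCA, the forkhead core GTAAACA, the glucocorticoid receptor core TGTTCT and the TATA box TATAAA.
Ppp1r3c: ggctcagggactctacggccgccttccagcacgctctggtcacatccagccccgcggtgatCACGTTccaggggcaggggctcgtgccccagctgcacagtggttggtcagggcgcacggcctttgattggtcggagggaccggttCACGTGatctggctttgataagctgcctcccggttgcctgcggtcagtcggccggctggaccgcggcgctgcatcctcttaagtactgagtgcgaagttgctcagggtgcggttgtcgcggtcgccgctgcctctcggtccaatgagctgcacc
Phka2: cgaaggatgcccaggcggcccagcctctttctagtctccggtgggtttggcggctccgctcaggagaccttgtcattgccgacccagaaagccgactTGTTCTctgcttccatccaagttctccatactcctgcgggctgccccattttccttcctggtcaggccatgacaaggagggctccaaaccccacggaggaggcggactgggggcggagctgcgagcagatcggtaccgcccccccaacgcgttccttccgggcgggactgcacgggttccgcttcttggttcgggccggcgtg
Gyg: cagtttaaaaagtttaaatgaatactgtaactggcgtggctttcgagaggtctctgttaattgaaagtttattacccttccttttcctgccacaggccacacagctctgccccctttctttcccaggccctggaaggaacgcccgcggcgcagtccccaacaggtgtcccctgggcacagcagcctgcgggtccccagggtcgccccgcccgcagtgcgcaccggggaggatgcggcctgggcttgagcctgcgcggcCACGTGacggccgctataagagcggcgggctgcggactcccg
The Ppp1r3c promoter lies at chr19:36736555-36736854 on the minus strand and holds CACGTG, first base 104 bases before the start site (position -104), and CACGTT at -189. The Phka2 promoter, chrX:160501912-160502211 on the plus strand, holds TGTTCT at -153. The Gyg promoter, chr3:20155067-20155366 on the minus strand, holds CACGTG at position 9 after the start. CACGTG was in 2 of the 8 promoters and in 7.15% of all 32851 promoters of the same length, CACGTT in 1 of 8 and 4.68%, and TGTTCT in 1 of 8 and 19.0%. The other 5 strings were in none of the 8 and in 0.938% (TTATGTAA), 2.61% (TAGGTCA), 1.79% (TGACGTCA), 3.65% (GTAAACA) and 13.6% (TATAAA) of all promoters. A match is a description of these letters, and no match says only that they are not in this window.

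Clock transcripts were read first, as a check of the time labels. Arntl, which encodes BMAL1, had its fitted peak at 21.63 h, Nr1d1 at 6.65 h, Dbp at 9.15 h and Per2 at 14.70 h, with peak-to-trough folds of 15.9, 40.7, 90.6 and 6.66 and limma adjusted p from 7.39e-06 to 0.00822. The depth implied by the values was 11.7 M to 13.9 M reads in 7 libraries and 22.9 M in CT35. CT35 also stood apart in composition. Intron reads made up 14.6% of its reads in named genes, against 19.8% to 22.4% elsewhere, and its junction reads were 87.8 per 100 gene reads, against 65.03 to 71.4. All 8 hepatocyte markers were present, with a summed level of 46338 to 72941 RPKM, highest in CT35. Of 5 skeletal muscle markers the summed level was 0.1002 to 0.555 RPKM and Ckm was at 0 in every library. Markers of Kupffer cells (22.2 to 39.1 RPKM summed), endothelial cells (37.7 to 53.8), stellate cells (49.6 to 70.6), cholangiocytes (14.6 to 34.1), red blood cells (40.1 to 73.0), fat cells (3.57 to 9.51) and pancreas (1.63 to 4.96) were also read, and their part in the results was not tested. In whole liver, fewer cells of a type and less RNA per cell cannot be told apart.

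Averaged over the 8 libraries, the transcripts ranked Pygl (80.1 RPKM), Gys2 (67.0), Ppp1r3b (53.8), Ugp2 (28.0), Gbe1 (21.4), Ppp1r3c (15.7), Phka2 (4.07), Gyg (1.496) and Ppp1r3g (0.188). Pygl, Gys2 and Ppp1r3b overlapped in their ranges (57.9 to 100, 33.4 to 115 and 22.3 to 85.2 RPKM), as did Ugp2 (21.4 to 36.5) and Gbe1 (18.9 to 24.9). Ppp1r3c ran from 4.57 to 31.8 RPKM and overlapped with all but Pygl, Gys2, Gyg and Ppp1r3g. Phka2 reached 5.34 RPKM and overlapped with Ppp1r3c alone. Gyg and Ppp1r3g did not overlap with any gene ranked above them, and Gys2 stood 26.9 to 78.5 times above Gyg in single libraries. The ranking holds for the transcript models chosen here. With those of largest summed RPKM, the mean log2(RPKM + 0.5) was 6.68 for Ugp2 (4.80 here) and 4.27 for Phka2 (2.15 here). For Gys2 it was 6.85 (5.96 here) and for Pygl 6.90 (6.31 here).

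Of the 9 genes, 8 had enough reads for the test of a 24-h curve (at least 20 reads in at least 2 libraries), and 4 passed it: Gys2, Phka2, Ppp1r3b and Ppp1r3c. Over all 11483 genes tested by the same limma fit, 3.04% passed (Benjamini-Hochberg adjusted p under 0.05). Their fitted peaks were spread over the cycle, Phka2 at 7.34 h, Gys2 at 12.23 h, Ppp1r3b at 17.53 h and Ppp1r3c at 21.66 h. Among the 8 tested genes the fold from trough to peak had a median of 1.94, against 1.29 over all genes. At an unadjusted p under 0.05 the count was 6 of 8, against 17% of all genes. Because the list was drawn up with earlier results of these data known, these shares are descriptions and no independent test. The levels with their fitted curves, and the peak times with their sizes, are plotted gene by gene.

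**Figure D1:**
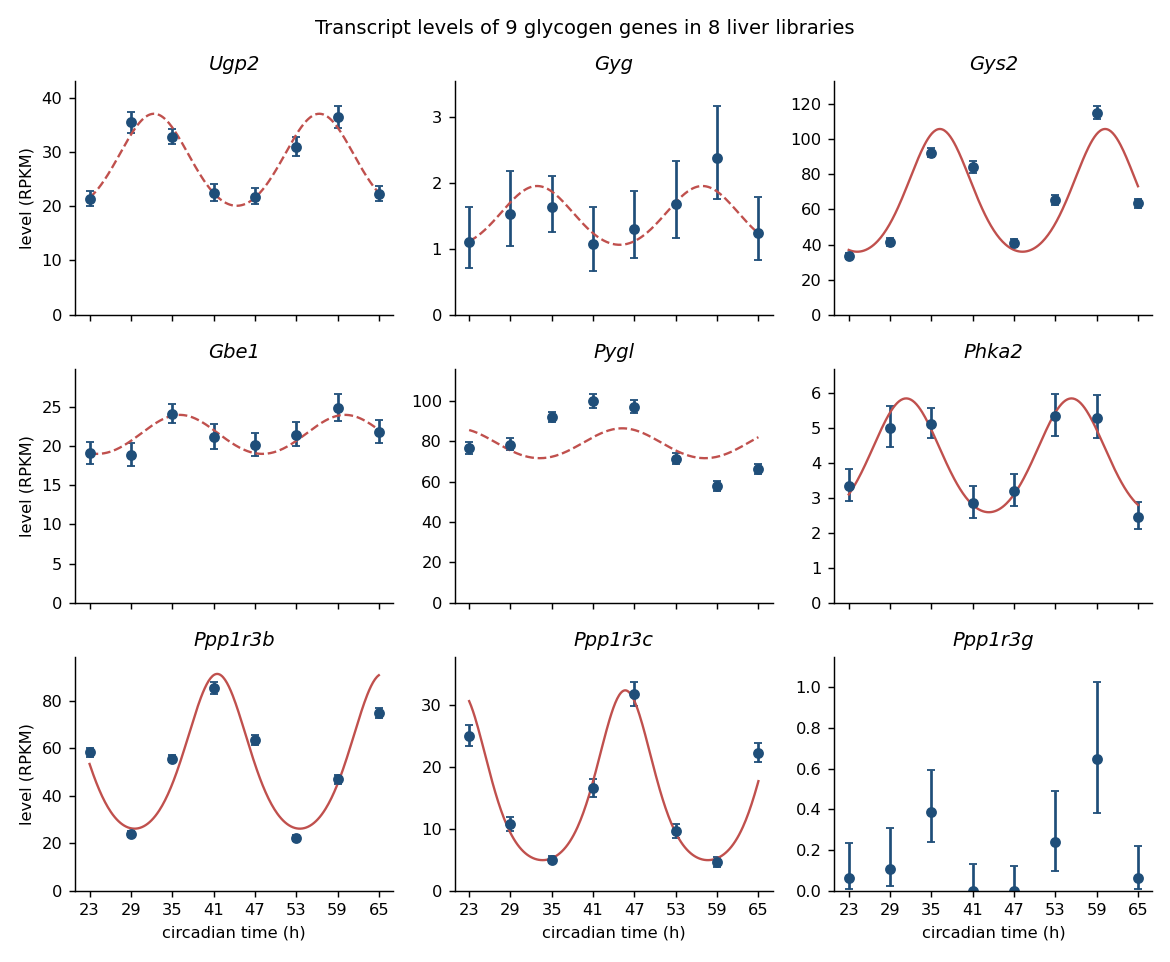
Level in RPKM (vertical axes, each starting at 0) of the 9 transcripts in the 8 libraries by circadian time; points are single libraries, bars 95% Poisson intervals of the reads (counting error only), and lines the fitted 24-h curve, solid where it passed the adjusted test and dashed where it did not. Ppp1r3c ran between 4.57 and 31.8 RPKM and Ppp1r3b between 22.3 and 85.2 RPKM with the same order of phases on both days; Ppp1r3g was not fitted.

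**Figure D2:**
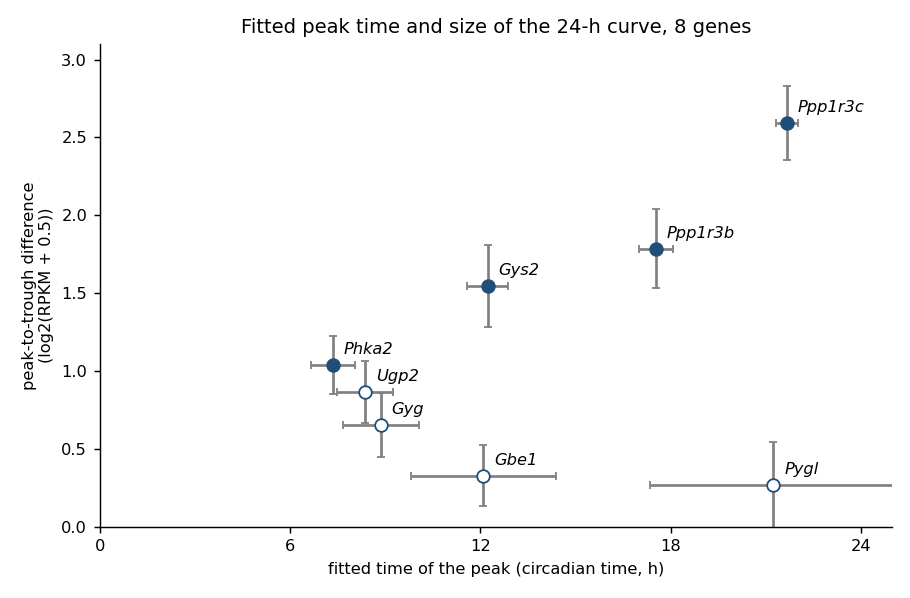
Fitted peak-to-trough difference on the log2(RPKM + 0.5) scale against fitted peak time in circadian hours for the 8 tested transcripts; bars are standard errors, filled points passed the adjusted 24-h test and open points did not. Filled points run from Phka2 at 7.34 h to Ppp1r3c at 21.66 h; the time bar of Pygl extends past the axis.

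Among the synthesis genes, Gys2 varied most. Its transcript (RefSeq NM_145572, mm9 chr6:142371133-142421629, minus strand, 17 exons) was read at 33.4 RPKM at CT23, 41.3 at CT29, 92.4 at CT35, 84.2 at CT41, 40.9 at CT47, 65.3 at CT53, 115 at CT59 and 63.5 at CT65. Both CT11 libraries were above all others, and both CT23-phase libraries were the lowest 2. The fitted curve rose 2.92-fold from trough to peak (log2 1.55, SE 0.26; peak 12.23 h, SE 0.65 h; limma adjusted p = 0.0172). Between CT23 and CT11 phases the log2 difference was -1.47 (SE 0.26, adjusted p = 0.0129), and the CT5 and CT17 libraries overlapped (log2 difference -0.49, SE 0.26, adjusted p = 0.433). The 24-h call was lost without CT23 (adjusted p = 0.101), without CT59 (0.108) or with no minimum of reads (0.0872). Without CT35 it stood, at adjusted p = 0.00896.

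Ugp2 (mm9 chr11:21221147-21270882, minus strand, 10 exons) was read at 21.4, 35.5, 32.9, 22.5, 21.8, 31.0, 36.5 and 22.3 RPKM from CT23 to CT65 in order of time. The 4 libraries of phases CT5 and CT11 were all above 30 RPKM and the 4 of CT17 and CT23 all below 23 RPKM, with same-phase libraries within 1.15-fold. Its fitted 1.82-fold curve (log2 0.87, SE 0.20; peak 8.36 h, SE 0.88 h) missed the threshold, with limma adjusted p = 0.0715. It passed without CT35 (adjusted p = 0.0498) and with DESeq2 on recovered reads (adjusted p = 0.0239), and in no other of 18 alternatives. Of its exon bases 2.79% overlap Gm12043 on the other strand, and the libraries do not mark strand.

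Gbe1 and Gyg were called in none of 18 alternatives, which does not show that they were constant. Gbe1 (mm9 chr16:70314332-70569961, plus strand, 16 exons) was read at 19.0, 18.9, 24.1, 21.2, 20.1, 21.4, 24.9 and 21.8 RPKM from CT23 to CT65. Its 2 highest libraries were the 2 of phase CT11, and the fitted difference was 1.26-fold (log2 0.33, SE 0.20, limma adjusted p = 0.599). Gyg (mm9 chr3:20022033-20054968, minus strand, 8 exons) was read at 1.101, 1.54, 1.64, 1.07, 1.297, 1.68, 2.39 and 1.25 RPKM, from 21 to 63 reads a library. The 4 libraries of CT5 and CT11 were again above the other 4, with a fitted peak at 8.86 h and a 1.57-fold curve (log2 0.65, SE 0.21, adjusted p = 0.210).

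Of the breakdown genes, Pygl, the phosphorylase, showed no 24-h curve that passed the test. The transcript (mm9 chr12:71291798-71328670, minus strand, 20 exons) was read at 76.7, 78.5, 92.1, 100, 97.3, 71.5, 57.9 and 66.4 RPKM from CT23 to CT65. The 3 highest values were consecutive, CT35 to CT47, and the 3 lowest were the last 3 times, so that same-phase libraries differed by up to 1.59-fold (CT35 and CT59). Its fitted fold was 1.21 (log2 0.27, SE 0.28, limma adjusted p = 0.831). The day term was -0.26 (second minus first day, log2, SE 0.20), with unadjusted p = 0.218.

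Phka2 passed. Its transcript (RefSeq NM_172783, mm9 chrX:156940366-157029654, plus strand, 33 exons) was read at 3.34 RPKM at CT23, 5.01 at CT29, 5.12 at CT35, 2.85 at CT41, 3.19 at CT47, 5.34 at CT53, 5.28 at CT59 and 2.46 at CT65. Values fell into a high set, the 4 libraries of CT5 and CT11, and a low set, the other 4, with no overlap and same-phase libraries within 1.16-fold. The curve had a fold of 2.05 (log2 1.04, SE 0.19; peak 7.34 h, SE 0.69 h; limma adjusted p = 0.0232), and the CT5 minus CT17 log2 difference was 0.85 (SE 0.19, adjusted p = 0.0493). The 24-h call was lost without CT23, CT41, CT53, CT59 or CT65 (adjusted p 0.0594 to 0.0812), with no minimum of reads (0.0735), and with a 250-base transcript model that had the largest summed RPKM (0.212). Reads numbered 157 to 552 a library, and 2.44% of the exon bases overlap Gm15243 on the other strand.

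The targeting subunits of protein phosphatase 1 gave the 2 largest curves, at different times. Ppp1r3c, known as PTG (RefSeq NM_016854, mm9 chr19:36806221-36811094, minus strand, 2 exons), was read at 25.03 RPKM at CT23, 10.8 at CT29, 5.05 at CT35, 16.6 at CT41, 31.8 at CT47, 9.61 at CT53, 4.57 at CT59 and 22.3 at CT65. The order of phases was the same on both days, CT23 highest, then CT17, CT5 and CT11, with no overlap between phases. The curve had a fold of 6.03 (log2 2.59, SE 0.24; peak 21.66 h, SE 0.35 h; limma adjusted p = 0.000347), and the CT23 minus CT11 log2 difference was 2.44 (SE 0.24, adjusted p = 0.000194). It was called in all 18 alternatives, with a highest adjusted p of 0.00955.

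Ppp1r3b, known as GL (RefSeq NM_177741, mm9 chr8:36438795-36451191, plus strand, 2 exons), is the main liver targeting subunit. It was read at 58.3 RPKM at CT23, 23.9 at CT29, 55.6 at CT35, 85.2 at CT41, 63.3 at CT47, 22.3 at CT53, 46.99 at CT59 and 74.8 at CT65. The CT17 libraries were the 2 highest and the CT5 libraries the 2 lowest, and CT23 lay above CT11 on both days. The curve had a fold of 3.44 (log2 1.78, SE 0.25; peak 17.53 h, SE 0.54 h; limma adjusted p = 0.00693), and the CT5 minus CT17 log2 difference was -1.77 (SE 0.25, adjusted p = 0.00467). The call was lost without CT53, at adjusted p = 0.0534, and held in the other 17 alternatives.

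Ppp1r3g, a targeting subunit known from fed liver, was near the limit of detection. Its transcript (mm9 chr13:36059722-36062257, plus strand, 2 exons) had 2, 3, 21, 0, 0, 7, 18 and 2 reads from CT23 to CT65. The 2 highest counts were those of phase CT11, at 0.389 RPKM in CT35 (95% Poisson interval 0.241 to 0.594) and 0.648 RPKM in CT59 (0.384 to 1.02). For the counts of 0 at CT41 and CT47, a limit of 3 reads equals 0.109 and 0.0986 RPKM. The upper ends of their 95% Poisson intervals were 0.134 and 0.121 RPKM. It missed the minimum of reads, and with no minimum, over 18862 genes, its limma adjusted p was 0.158 (unadjusted 0.00388, fitted peak 9.67 h).

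Taking the members by phase, 2 of the 8 tested were called between CT23 and CT11, Ppp1r3c higher and Gys2 lower at CT23, against 2.04% of all genes (1.11% higher and 0.932% lower). Between CT5 and CT17, 2 were called, Phka2 higher and Ppp1r3b lower at CT5, against 1.2% of all genes (0.749% higher and 0.453% lower). The median CT5 minus CT17 log2 difference over all genes was 0.11, and with medians made equal Phka2 was no longer called in this comparison. The same loss followed a pseudocount of 1, TMM scaling, edgeR on recovered reads, no minimum of reads or the largest summed RPKM. Leaving out any single library other than CT35 also lost it. The call held with a pseudocount of 0.1, the upper value, DESeq2, the longest transcript and without CT35. The libraries of CT23 and CT11 did not overlap for 7 of the 8 tested genes, against 43.0% of all genes, and those of CT5 and CT17 for 5 of 8, against 48.0%. No member was called for a 12-h component by limma, edgeR or DESeq2 at an adjusted p under 0.05 (0.00871% of all genes were by limma). At an unadjusted limma p under 0.05 the count was 1 of 8, Ppp1r3b (unadjusted p = 0.0314), against 9.06% of all genes. For Ppp1r3c the unadjusted p was 0.0358 by edgeR and 0.0393 by DESeq2, and for Ppp1r3b 0.0501 and 0.0406. No share of all genes was taken for these tools. Between the second and the first day limma, edgeR and DESeq2 called 0 members, 0 had an unadjusted p under 0.05 by limma, and 0% of all genes were called (2.03% unadjusted).

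The proportions of synthesis, breakdown and targeting transcripts varied between libraries. The ratio of Gys2 to Pygl RPKM was 0.435 at CT23, 0.526 at CT29, 1.003 at CT35, 0.841 at CT41, 0.420 at CT47, 0.912 at CT53, 1.99 at CT59 and 0.957 at CT65. The synthase transcript was below the phosphorylase in 6 libraries, lowest at the CT23 phase on both days, and above it by more than 1.9-fold in CT59. The ratio of Ppp1r3b to Ppp1r3c was 2.33, 2.22, 11.01, 5.13, 1.99, 2.32, 10.3 and 3.35 from CT23 to CT65. Both CT11 libraries exceeded 10, while the 4 libraries of CT23 and CT5 lay between 1.99 and 2.33. These ratios are descriptions with no test, and the size of the Gys2 to Pygl ratio depends on the transcript models chosen.

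**Figure D3:**
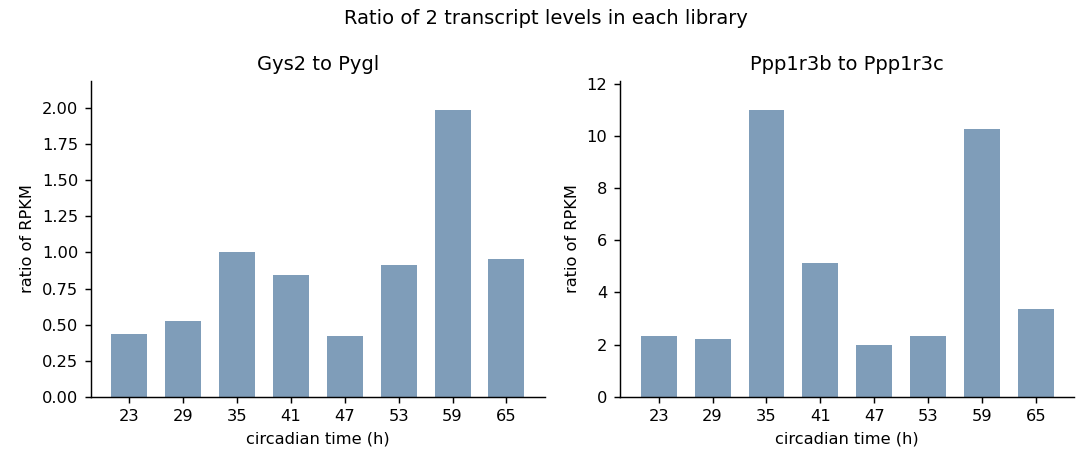
Ratio of RPKM between Gys2 and Pygl (left) and between Ppp1r3b and Ppp1r3c (right) in each of the 8 libraries by circadian time; bars start at 0 and stand for single libraries. The left ratio runs from 0.420 at CT47 to 1.99 at CT59, and the right one exceeds 10 at CT35 and CT59 alone.

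Intron reads were taken as a measure of unspliced RNA. They were enough for 6 members (at least 20 in 2 libraries), and 1 was called, Ppp1r3b, against 2.19% of 9846 genes. Its single intron of 8178 bases was read at 5.68 RPKM at CT23, 2.56 at CT29, 5.07 at CT35, 9.67 at CT41, 6.30 at CT47, 1.74 at CT53, 4.66 at CT59 and 7.28 at CT65. The intron had the order of phases of the spliced transcript, with a 3.97-fold curve (log2 1.99, SE 0.34; peak 17.57 h, SE 0.66 h; limma adjusted p = 0.00531). An unnamed transcript model has a longer first exon that covers the start of this intron, so the intron dropped out when introns touching any exon were left out (added after seeing the data). Reads in that stretch can come from spliced RNA. The curve was fitted to the whole intron, with 4846 reads over the 8 libraries, so it mixes the 2 kinds of RNA. The remaining 7230 bases, chr8:36439808-36447037, read 4.44, 1.87, 3.597, 6.35, 4.33, 1.05, 3.56 and 5.86 RPKM from CT23 to CT65, again highest in the CT17 libraries and lowest in the CT5 libraries. This part held 3102 reads and was not tested on its own. The intron call was lost without CT53 (adjusted p = 0.0545).

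For Gys2, intron and transcript differed in CT35. Its introns were read at 0.361 RPKM at CT23, 0.747 at CT29, 0.366 at CT35, 0.819 at CT41, 0.415 at CT47, 1.25 at CT53, 1.07 at CT59 and 0.627 at CT65. CT35 was among the lowest 2 for introns and second highest for the transcript, and this is the library with the lower share of intron reads. With it, the intron curve had limma adjusted p = 0.881, and without it a log2 difference of 1.54, a peak at 9.97 h and adjusted p = 0.0603. The most-read Gys2 intron, chr6:142377193-142378809, held 30, 31, 44, 76, 47, 59, 91 and 67 reads from CT23 to CT65. Scaled to depth, CT35 was its lowest library, at 1.19 RPKM, beside 1.43 at CT23 and 1.59 at CT29. The Ppp1r3c intron, 2198 bases, held 33, 6, 4, 6, 16, 4, 3 and 13 reads from CT23 to CT65. The CT23 and CT47 libraries were the 2 highest, as for its transcript, but the reads were too few for the test.

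Introns of the other 4 tested members, Ugp2, Gbe1, Pygl and Phka2, gave limma adjusted p from 0.479 to 0.893. Those of Ugp2 ran from 0.137 RPKM at CT35 to 0.365 at CT29, those of Pygl from 1.14 at CT53 to 1.72 at CT47, those of Gbe1 from 0.0594 to 0.160 and those of Phka2 from 0.0775 to 0.151. CT35 was the lowest library for Ugp2, Gbe1 and Phka2. The exon-to-intron ratio had a 24-h component in 0 of 6 members, and in 0% of 9210 genes, by limma. At an unadjusted p under 0.05 there were 2 of 6, Ugp2 (unadjusted p = 0.0168) and Gys2 (unadjusted p = 0.0415), against 6.46% of all genes, and other tools were not run on it. Without CT35, Ugp2 was no longer under this threshold, while Gbe1 and Gys2 were.

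**Figure D4:**
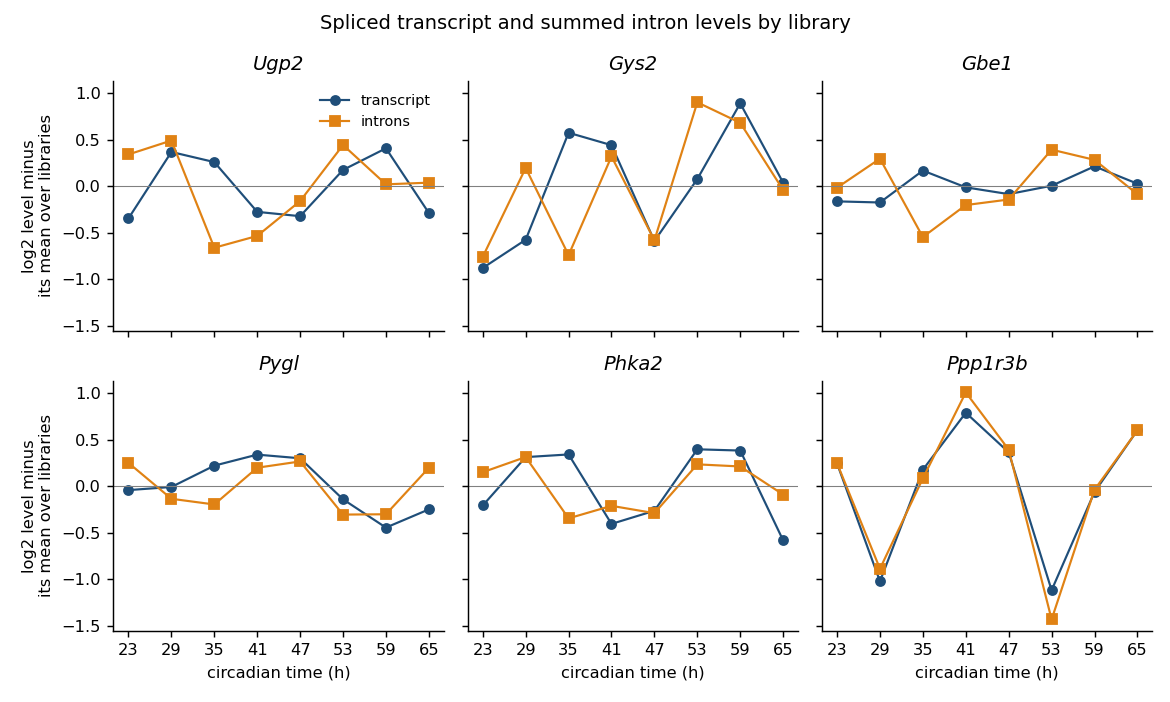
Log2 transcript level (circles, log2(RPKM + 0.5)) and log2 summed intron level (squares, log2(RPKM + 0.05)) of 6 genes in each library by circadian time, each minus its own mean over the 8 libraries. The 2 lines run together for Ppp1r3b, whose intron includes exon bases of an unnamed model, and for Gys2 they part most at CT35.

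Reads that cross exon borders are tied to a gene by its splice sites, and gave a second count from the same libraries. With edgeR on junction reads summed by gene, 7 members could be tested and 1 was called, Gys2, against 2.22% of 8689 genes. Per M junction reads of the library, Gys2 had 274 at CT23, 319 at CT29, 588 at CT35, 608 at CT41, 293 at CT47, 433 at CT53, 894 at CT59 and 552 at CT65, across all 16 introns. CT59 was highest and the CT23 phase again lowest. The fitted curve had a peak-to-trough log2 difference of 1.55 and a peak at 12.97 h (edgeR adjusted p = 0.00896). The call was lost without CT23 (adjusted p = 0.0596) or CT59 (0.0508). Phka2, read across all 32 introns, had 51.1, 67.0, 60.3, 39.0, 40.8, 72.0, 74.8 and 36.1 per M, a peak at 7.34 h and adjusted p = 0.0925, which became 0.0433 with DESeq2 and 0.0414 without CT35. The annotated junctions of Ppp1r3b (252 reads in all, leaving out 2 other donors described next; edgeR adjusted p = 0.347) and Ppp1r3c (80 reads, not tested) were thinly covered, and Ppp1r3g had none. The most-read junction of a gene held from 80 reads (Ppp1r3c) to 4160 (Pygl), and 5 of the 7 introns of Gyg were crossed.

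Ppp1r3b was spliced to its last exon from 3 donors, leaving out any donor before the start of the named transcript or with few reads. The annotated donor ends at base 36438859 of chr8, a second at 36438995 is in no model, and the last, at 36439807, belongs to the unnamed model. Over all libraries they took 43.4% (Wilson 95% interval 39.5% to 47.5%), 35.3% (31.6% to 39.3%) and 21.2% (18.1% to 24.7%) of 580 junction reads. The share of the donor in no model was 32.1% at CT23, 41.7% at CT29, 28.0% at CT35, 46.5% at CT41, 32.5% at CT47, 44.0% at CT53, 26.3% at CT59 and 50.8% at CT65. Both CT17 libraries were the highest and both CT11 libraries the lowest, but counting error was wide. The intervals of CT41 (36.3% to 57.0%) and CT65 (38.8% to 62.7%) overlapped that of CT59 (15.0% to 42.0%) and not that of CT35 (22.4% to 34.4%), the library that stands apart in intron and junction reads. CT5 had 24 and 25 reads in all at this site, and no test of time was made.

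Ppp1r3c had 1 junction in no model, chr19:36808543-36808644, with 5 reads over the 8 libraries, too few for a share by time. Gys2 had 1 junction in no model with at least 5% of the reads of its most-read junction, chr6:142375955-142376349, which shares a splice site with the annotated intron chr6:142375955-142377028. It took 6.67% of reads at that site at CT23, 5.75% at CT29, 0.687% at CT35, 7.92% at CT41, 6.40% at CT47, 6.21% at CT53, 6.83% at CT59 and 7.91% at CT65. The interval of CT35, 0.362% to 1.301%, lay below those of the other 7 libraries, the lowest of which began at 3.39%. CT35 is the library that stood apart in intron and junction reads, and the part of that in this share was not tested.

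**Figure D5:**
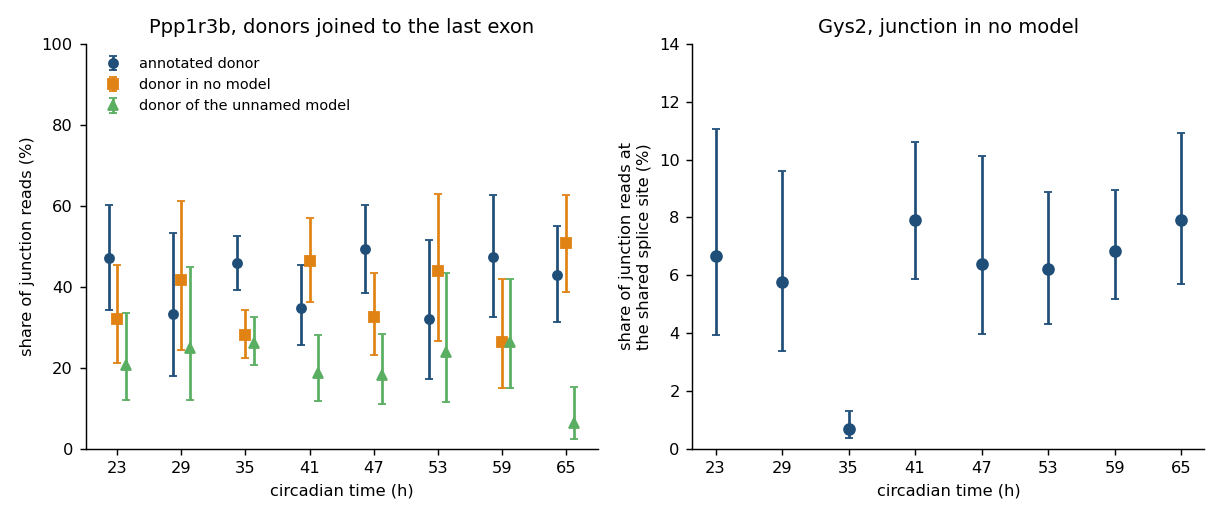
Left: share of junction reads joined to the last Ppp1r3b exon from each of 3 donors; right: share of reads at the shared splice site that use the Gys2 junction in no model, by circadian time. Points are single libraries and bars Wilson 95% intervals (counting error only); points of the 3 donors are offset sideways, and CT35 stands at 0.687% in the right panel.

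Of 27 other genes of glycogen metabolism, 21 were tested and 2 were called for the 24-h curve, against 3.04% of all genes; the median fold was 1.41. Stbd1, which tethers glycogen for uptake into autophagic vesicles, was read at 9.95, 18.2, 22.5, 12.2, 13.2, 23.05, 18.2 and 9.98 RPKM from CT23 to CT65, with a 2.25-fold curve peaking at 7.84 h (limma adjusted p = 0.0348). Its 4 libraries of CT5 and CT11 were above the other 4, as for Ugp2, Gyg and Phka2. Slc37a4, the transporter that carries glucose 6-phosphate into the endoplasmic reticulum, was read at 19.9, 19.5, 61.01, 33.4, 21.3, 23.3, 43.2 and 25.6 RPKM, with a 2.59-fold curve peaking at 12.27 h (adjusted p = 0.0432). Its highest library was CT35. When each library was left out in turn, Stbd1 stayed called without CT29, CT35 or CT47 only, and Slc37a4 without CT65 only. Both calls were lost with no minimum of reads and with the largest summed RPKM.

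Abundant genes of this list that were not called included G6pc, Pgm1 and Ppp1ca. G6pc, the catalytic subunit of glucose 6-phosphatase, ran from 58.9 to 82.0 RPKM (limma adjusted p = 0.728). Pgm1, a phosphoglucomutase, ran from 38.1 to 67.4 (0.498) and Ppp1ca, a catalytic subunit of protein phosphatase 1, from 28.1 to 63.3 (0.314). The muscle phosphorylase Pygm was at 0.162 to 0.508 RPKM and the muscle targeting subunit Ppp1r3a at 0 reads in every library.

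Genes whose levels ran most like each called member were sought among the 4925 tested genes with a mean of at least 5 RPKM, by Pearson r of log2(RPKM + 0.5) over the 8 libraries. All points of a pair share their library and its depth, so r is given as a description. For Gys2 they were Mat1a (r = 0.974), Por (0.972) and Usp2 (0.971), and for Phka2 Dcaf6 (0.985), Abcg8 (0.974) and Kat2b (0.970). For Ppp1r3b they included Nat8f5 (0.984) and Baiap2 (0.9495). Mat1a, Por and Baiap2 did not themselves pass the 24-h test (limma adjusted p = 0.251, 0.0578 and 0.115). For Ppp1r3c they were Ddc (0.986), Tjp3 (0.981) and the clock gene Arntl (0.979). Their fitted peaks were 21.66, 21.50 and 21.63 h, beside 21.66 h for Ppp1r3c. A shared peak time follows from picking genes by likeness and is no further result.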

How the data were processed

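Each deposited table gives, for every transcript model with its exons and introns, a lower and an upper value. Column headers do not name the unit; times length and a constant per library, 96.3% to 99.2% of transcripts gave whole reads (within 0.1 read), so the values were read as RPKM, and the lower one was used. The build is mm9, per the submitters' processing notes; what program made the values is not given in these sources. Junction files, per the file headers, hold high-quality RUM junctions; their deposited counts are raw reads per junction. Models were named through RefSeq or Vega identifiers (79709 of 115699), and the model with most recovered reads stood for a gene; the intended choice, largest summed RPKM, picked fragments for 4 members and is given as an alternative. Members, lists and tests were chosen with earlier results of these data known.

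A 24-h cosine and sine were fitted with limma 3.58.1 (R 4.3.3; trend, robust) to log2(RPKM + 0.5) over all genes with at least 20 reads in 2 libraries, and to introns with log2(RPKM + 0.05); fold changes are on that scale and understate low genes. Times are tested against scatter around the curve, with 5 residual degrees of freedom per gene, and pools are not replicate animals. Junction reads were tested with edgeR 4.0.16 (quasi-likelihood, TMM), and DESeq2 1.42.0 was an alternative; scripts were tested on simulated data. Named genes were the 9 members, called genes of the other list and its 4 most abundant not called, the 3 most alike genes per called member, the most-read intron and junction, and junctions in no model with at least 5% of the reads of the gene's most-read one; 2 of the genes so named are not reported here.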

Additional observations from a re-analysis of the deposited data

Results flagged for a closer look

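The 3 results below are junction reads that no transcript model holds, listed for that reason alone and without a test. The Gys2 junction had 198 reads over the 8 libraries, from 9 at CT35 to 47 at CT59. The second Ppp1r3b donor had 205 reads, from 10 in CT29 and CT59 to 60 in CT35, beside 252 for the annotated donor. CT35 is the deepest library, and the share of this donor there was 28.0%, beside 50.8% at CT65, its highest. The Ppp1r3c junction had 5 reads, at most 2 in a library, beside 80 for the annotated one. No group had more than 1 library, so no library was tested as an outlier of its group.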

How the results depend on the processing

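No paired analysis was possible because each time has 1 library and the replicate number 1 pairs nothing. The 24-h count of 4 members became 2 with no minimum of reads, stayed at 3 to 5 under the other settings, and ranged from 2 to 5 when each library was left out. CT23 against CT11 went from 2 to 1 with no minimum of reads and ranged from 1 to 2 without single libraries. CT5 against CT17 went from 2 to 1 with a pseudocount of 1, no minimum of reads, TMM, equal medians, edgeR or the largest summed RPKM, and ranged from 0 to 3 without single libraries. The other glycogen genes went from 2 to 0 with no minimum of reads or the largest summed RPKM, to 5 with DESeq2, and ranged from 0 to 1 without single libraries. Introns went from 1 to 0 when introns touching any exon were left out (chosen after seeing the data), and ranged from 0 to 1 without single libraries. Junction reads went from 1 to 2 with DESeq2 and ranged from 0 to 2 without single libraries. The 12-h, day and ratio counts were 0 throughout. Over all alternatives the fitted peak stayed within 11.58 to 12.80 h for Gys2, 6.70 to 7.64 h for Phka2, 17.11 to 18.03 h for Ppp1r3b and 21.45 to 22.04 h for Ppp1r3c. Of the genes not called, Pygl had no stable peak time (21.24 h, but 0.58 h without CT41 and 16.50 h without CT59), and the peak of Gbe1 moved from 12.09 h to between 10.90 h (without CT29) and 13.97 h (equal medians). The largest summed RPKM called 200 of 10855 genes and Gys2 (adjusted p = 0.0483), Ppp1r3b and Ppp1r3c among the members. Calls over all genes fell to 89 of 18862 with no minimum of reads and rose to 768 of 11483 with DESeq2, and ranged from 177 to 480 without single libraries. The depth of 11.7 M to 22.9 M reads limits Ppp1r3g, Gyg and the introns of small genes.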
